A study of Mus musculus with 6 samples.

Results

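Microglia-marker droplets were 10x Genomics droplets, from T cells sorted out of mouse brain tumours, that held RNA of microglia, the resident macrophages of the brain. They were chosen by 4 conditions on each barcode: at least 5000 gene UMIs, at most 10% of UMIs from mitochondrial genes, no assembled T cell receptor (TCR) contig on that day, and at least 5 UMIs of P2ry12, Tmem119 and Sall1 together. UMIs (unique molecular identifiers) count captured RNA molecules without PCR copies. The rule found 630 droplets at day 13, which is 14.8% of the 4246 barcodes that met the other 3 conditions (exact binomial 95% interval 13.8% to 15.9%). At day 19 it found 329 of 1452, or 22.7% (20.5% to 24.9%). The gap between the days depends on the rule: the shares were 10.9% and 11.8% with at least 10 UMIs of the 3 genes, and 7.91% and 13.1% without droplets that also had 3 or more UMIs of the macrophage genes Gpnmb and Ms4a7. The 959 droplets came from matrices of 736611 and 735849 barcodes.

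The tumours were CT2A, a mouse glioma line, grown inside the skull of wild-type C57BL/6J mice of 6 to 8 weeks. Cells positive for CD3 with CD4 or with CD8 were sorted by flow cytometry at day 13 (early, 16 mice, pooled 4 to a replicate) and at day 19 (late, 4 mice). RNA, 138 surface antibody tags and 4 multiplexing tags were counted in 1 capture per day. Both groups share the strain, the tumour line and the CD3 sort, which selects T cells. With 1 capture per day there is no test and no p-value. The day cannot be told apart from its capture and its staining, and every interval covers counting error only.

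Microglia settle in the brain before birth and renew themselves there, while most other macrophages of a brain tumour come from blood monocytes. They clear debris and dying cells, prune synapses, release complement and chemokines, and depend on signals such as CSF1 and TGF-beta for their identity. P2ry12 (a receptor for nucleotides released by damaged cells), Tmem119 (a surface protein of unsettled function) and Sall1 (a transcription factor that maintains microglial identity) are among the genes used to tell them from monocyte-derived macrophages.

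Macrophage comparators passed the same depth, mitochondrial and contig conditions but had at least 3 UMIs of Gpnmb and Ms4a7 together and at most 1 of P2ry12 and Tmem119. There were 622 of them at day 13 and 128 at day 19, so the microglia-marker droplets numbered 1.01 per comparator on the first day and 2.57 on the second. Because a UMI rule separated the 2 sets, every difference between them is a description of what the rule picked out. Reference T cells (3789 and 2314 barcodes) had a TCR contig, at least 3 UMIs of Cd3d, Cd3e and Cd3g together and none of the rule genes. Levels are counts per 1000000 gene UMIs (CPM) of all droplets of a set and day summed, and ratios are log2 of CPM.

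The sum of the 3 rule genes ranged from 5 to 90 UMIs at day 13 (median 17) and from 5 to 46 at day 19 (median 10). The droplets were deep, with a median of 24721 gene UMIs (5030 to 81377) at day 13 and 33209 (5212 to 95776) at day 19, against 7196 and 9005.5 in reference T cells. On the edge of the rule, 41 and 46 droplets had a sum of exactly 5, and 76 and 63 had 4 and stayed out. Olfml3, a microglia marker that the rule did not use, was 163 and 165 CPM in the droplets just inside and 148 and 176 CPM in those just outside, an order that was not the same on both days. Only 1 barcode was shared by members of both days, among 62 barcodes that the 2 matrices shared at this depth.

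The promoters below are shown for the rule gene with the highest level at day 13 and for Mmp12 and Mmp13, which were among the 12 genes with the lowest ratios described further on and held searched motifs. They are the 250 bases before the start site in RefSeq on GRCm38.p6, with motif matches in capitals.
P2ry12: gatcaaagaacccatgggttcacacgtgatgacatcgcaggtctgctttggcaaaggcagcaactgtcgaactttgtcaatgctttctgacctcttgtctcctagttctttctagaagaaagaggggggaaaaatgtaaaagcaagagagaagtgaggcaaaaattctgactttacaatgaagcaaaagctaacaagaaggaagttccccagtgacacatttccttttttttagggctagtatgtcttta
Mmp12: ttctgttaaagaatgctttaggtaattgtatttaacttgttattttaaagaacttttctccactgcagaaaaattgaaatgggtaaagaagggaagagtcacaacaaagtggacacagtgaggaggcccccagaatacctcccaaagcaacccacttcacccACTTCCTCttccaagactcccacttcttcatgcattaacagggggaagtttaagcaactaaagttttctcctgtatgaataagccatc
Mmp12 (second start): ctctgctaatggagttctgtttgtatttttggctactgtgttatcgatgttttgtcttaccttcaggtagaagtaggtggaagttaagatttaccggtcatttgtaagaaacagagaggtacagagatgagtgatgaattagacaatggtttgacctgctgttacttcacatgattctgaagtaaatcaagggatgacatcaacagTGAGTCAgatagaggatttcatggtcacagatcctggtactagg
Mmp13: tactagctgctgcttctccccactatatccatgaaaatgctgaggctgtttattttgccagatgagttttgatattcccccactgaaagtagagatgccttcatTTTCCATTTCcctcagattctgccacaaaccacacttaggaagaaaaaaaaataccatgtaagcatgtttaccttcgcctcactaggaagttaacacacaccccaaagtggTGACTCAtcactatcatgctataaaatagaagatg
P2ry12 lies at chr3:59262986-59263235 on the minus strand and held no motif. Mmp12, a macrophage elastase gene, had its first start behind chr9:7344147-7344396 (plus strand), with the PU.1 word GAGGAAGT 88 bases before it, and a second behind chr9:7347124-7347373, with an AP-1 word (TGACTCA or TGAGTCA) 44 bases before it. The Mmp13 (collagenase) promoter at chr9:7272264-7272513 (plus strand) held the interferon element word (GAAA, any 2 bases, GAAA) 146 bases before the start and an AP-1 word 35 bases before it. Words were searched on both strands. Of the 12 genes highest against the comparators, 8 had a promoter in RefSeq and 0 held any of the 3 words. Of the 12 lowest, 11 had one: 2 held the PU.1 word (18.2%; Mmp12 and Gpr31b), against 2.79% of 27025 genes, 2 held an AP-1 word against 5.16%, and 1 held the interferon word (9.09%) against 3.46%. These are matches of letters in few genes and say nothing about binding.

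T cell RNA was found in most of the droplets, and also free in the captures: 15 T cell markers summed to 3138 and 3806 CPM in the microglia-marker droplets, 4181 and 4229 CPM in empty droplets and 6691 and 6462 CPM in reference T cells. At least 1 UMI of Cd3d, Cd3e and Cd3g, the CD3 chains of the T cell receptor complex, was found in 80.5% (77.2% to 83.5%) at day 13 and in 86.6% (82.5% to 90.1%) at day 19. After each droplet was thinned to 5000 UMIs the shares were 77.9% and 84.5%, and in the comparators, unthinned, they were 77.7% and 75%. The median Cd3 sum was 29 UMIs at day 13 and 51 at day 19, above the 20 and 26 of reference T cells, while 123 and 44 of the microglia-marker droplets had none.

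**Figure D1:**
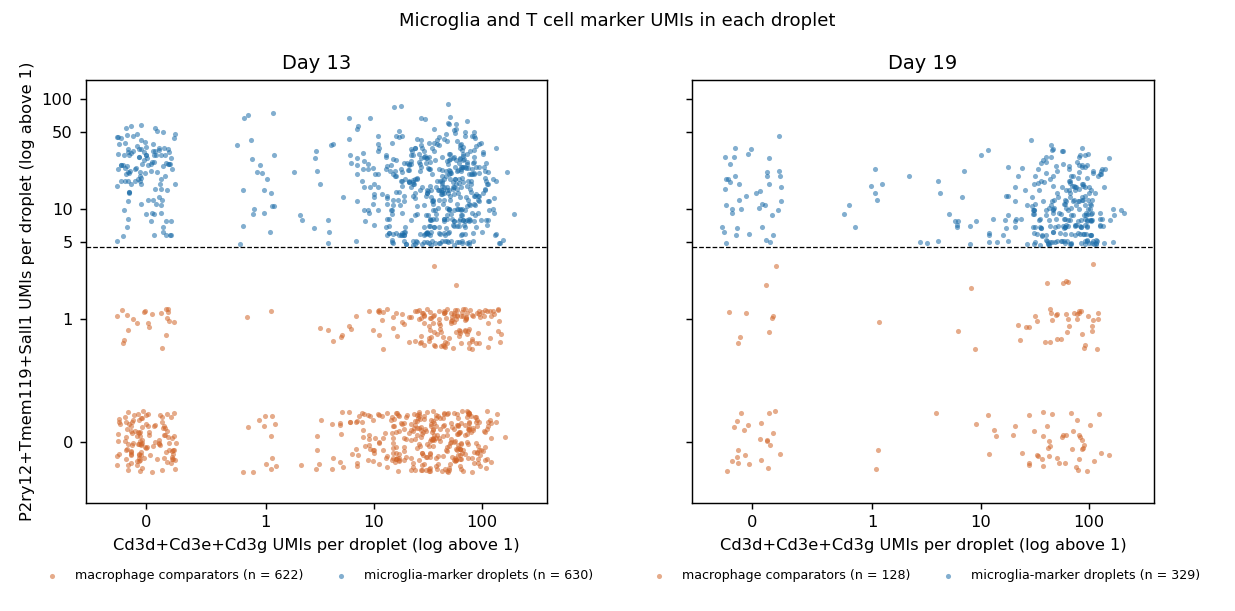
Each point is 1 droplet; the x axis is its UMIs of Cd3d, Cd3e and Cd3g, the y axis its UMIs of P2ry12, Tmem119 and Sall1 (both logarithmic above 1, jittered), and the dashed line marks the rule. Microglia-marker droplets lie in a group at 0 Cd3 UMIs (123 and 44 droplets) and a larger one at 3 or more (482 and 276).

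The droplets with Cd3 UMIs were deeper and carried more mixed tags. Those with at least 3 Cd3 UMIs had a median of 31776.5 gene UMIs at day 13 and 37887 at day 19, and those with none had 6744 and 8318.5. A second multiplexing tag made up at least 20% of the tag counts in 81.7% and 69.2% of the droplets with at least 3 Cd3 UMIs, in 20.3% and 27.3% of those with none, and in 16.9% and 17.8% of reference T cells. Both CD8 and CD4 RNA were found in 47.5% and 59.8% of the droplets with at least 3, against 4.49% and 5.83% of reference T cells, whose libraries were shallower. Depth and tag mixture thus moved with the Cd3 UMIs, and their part in the results was not tested. The droplets with no Cd3 UMI, called CD3-zero droplets here, are therefore given beside the whole set for the genes and lists described.

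The proportions of 4 T cell genes were compared with those in reference T cells and in the comparators. Per 100 Cd3 UMIs, Foxp3, the transcription factor of regulatory T cells, had 3.44 UMIs at day 13 and 5.12 at day 19, against 1.73 and 2.36 in reference T cells. The comparators had 3.79 and 4.46. Cd8a, a chain of the CD8 coreceptor, had 12.8 and 11.7, below the 19.1 and 17.8 of reference T cells and the 14.1 and 13.5 of the comparators. Tcf7, a transcription factor of naive and progenitor T cells, had 7.10 and 3.01 against 8.40 and 4.68, with 6.22 and 4.01 in the comparators. Pdcd1, the PD-1 receptor gene, had 7.46 and 9.85 against 6.69 and 9.17, with 8.08 and 9.36 in the comparators. Reference T cells were chosen for a TCR contig and the droplets for having none, so the 2 sets also differ by that choice. Lag3 and Havcr2, receptor genes often read as T cell exhaustion genes, were at 614 and 168 CPM at day 13 and 515 and 116 CPM at day 19 in droplets with no Cd3 UMI.

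The label was checked against microglia markers that the rule did not use. Crybb1, a crystallin gene expressed by microglia in the brain, was 121 CPM at day 13 and 183 CPM at day 19, against 5.16 and 27.3 CPM in the comparators. In CD3-zero droplets it was 383 and 529 CPM. Olfml3, a secreted matrix protein gene, was 405 and 315 CPM against 45.9 and 65.0 CPM, with 1393 and 1297 CPM in CD3-zero droplets. Gas6, the ligand of the receptors Axl and Mertk that take up dying cells, was 26.5 and 42.7 CPM against 3.13 and 6.53 CPM, with 92.3 and 177 CPM in CD3-zero droplets. All 25 such markers were higher than in the comparators on both days, in the whole set and in CD3-zero droplets. With the sum of 201 genes that T cells lack as the denominator, 23 and 24 of them were higher. Tgfbr1 and, in the whole set, Tmem173 were not. In both sets together these 201 genes had at least 50 UMIs a day and at least 10 times the level of reference T cells on both days. The rule genes of either set were left out. Wherever T-lacking genes are the denominator, these 201 are meant. That denominator lowered every log2 ratio to the comparators by a fixed amount, -0.54 at day 13 and -0.42 at day 19 (-0.58 and -0.61 in CD3-zero droplets).

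Free RNA sets the background of such data. In empty droplets of 10 to 100 UMIs, Crybb1 was 25.9 and 64.4 CPM and Olfml3 86.4 and 108 CPM. Of the 25 markers, 24 were above the empty droplets on both days in the microglia-marker droplets; the exception was Selplg. In the comparators 16 of 25 were below the empty droplets on both days. Summed, the 25 markers made 17937 and 11231 CPM in the microglia-marker droplets, 54471 and 38102 in the CD3-zero ones, 4360 and 3846 in the comparators and 4621 and 4426 in empty droplets.

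Other markers of the list differed widely in level. Cst3, which encodes the protease inhibitor cystatin C, was 9329 and 4620 CPM (CD3-zero 27791 and 15348). Sparc, a matrix-binding secreted protein gene, was 614 and 443 CPM, against 19.4 and 54.3 CPM in the comparators, with 2009 and 1746 CPM in CD3-zero droplets. Cx3cr1, the receptor for the neuronal chemokine fractalkine, was 562 and 338 CPM against 87.7 and 101 CPM (CD3-zero 1836 and 1115). Of the rule genes, which are higher by construction, P2ry12 was 387 and 143 CPM, Tmem119 340 and 216 CPM, and Sall1 22.6 and 20.7 CPM.

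**Figure D2:**
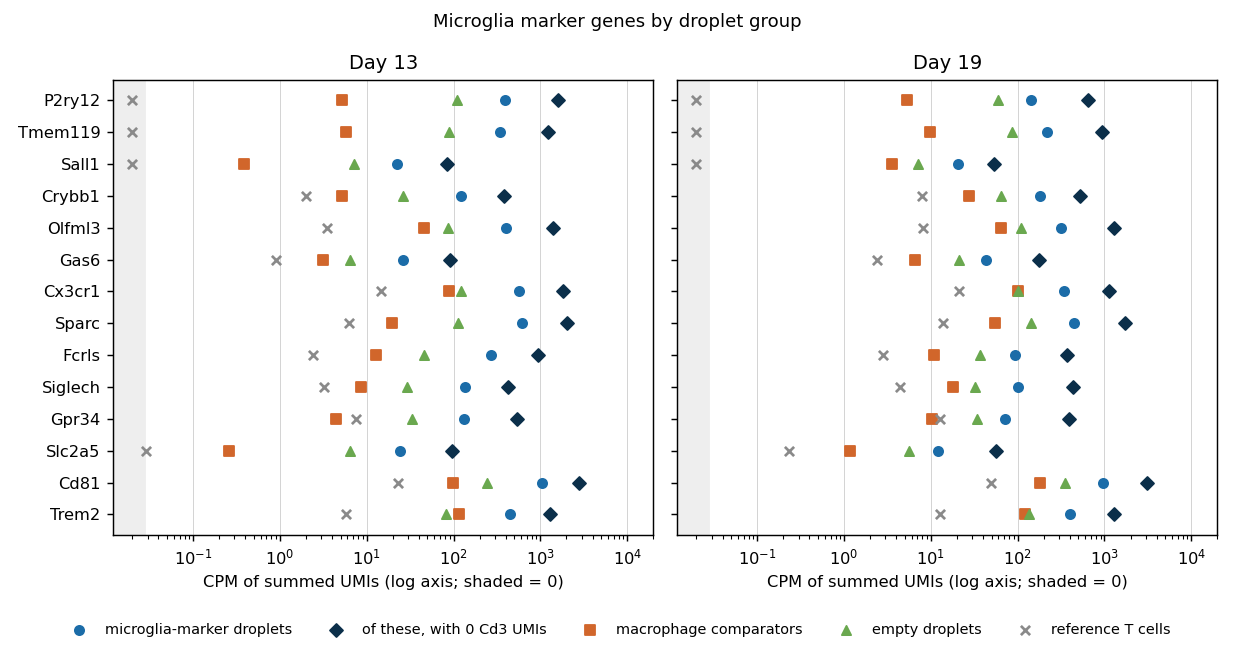
Levels of 3 rule genes (top) and other microglia markers in summed droplets of each set, in CPM on a logarithmic axis, for day 13 (left) and day 19 (right); the shaded strip stands for 0. CD3-zero droplets are rightmost for every gene plotted, with the whole microglia-marker set next.

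Markers of other cell types were present to different degrees, and their part in the results was not tested. As background, 40.4% of 10267 genes were higher in CD3-zero droplets than in CD3-zero comparators on both days, at any size of difference, and 24.5% were lower. Among the 2373 deeper genes, with at least 50 UMIs per day in both CD3-zero sets together, the shares were 37.9% and 37.7%. The 17 tumour macrophage markers summed to 4950 and 3103 CPM, and to 4072 and 2789 CPM in CD3-zero droplets, against 18611 and 18380 CPM in CD3-zero comparators. In CD3-zero droplets 16 of the 17 were lower on both days. All 8 monocyte markers were lower there too, Ly6c2 with 1201 and 573 CPM against 6604 and 4686 CPM. Border macrophage markers summed to 60.9 and 83.1 CPM in the whole set and 96.9 and 114 CPM in CD3-zero droplets. Neutrophil markers summed to 53.5 and 34.2 CPM, and to 134 and 114 CPM in CD3-zero droplets, with S100a9 at 0, and tumour and neural markers to 120 and 69.8 CPM in CD3-zero droplets, with 4 of 14 at 0 on both days in the whole set. NK cell markers summed to 285 and 438 CPM in CD3-zero droplets against 52.6 and 59.9 CPM in CD3-zero comparators, with 4 of 5 higher on both days.

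The set was not uniform. Gpnmb and Ms4a7, the genes that defined the comparators, reached 3 UMIs together in 294 droplets at day 13 (46.7%) and 139 at day 19 (42.2%). Those droplets were deep, with medians of 38030.5 and 42037 UMIs against 13470 and 26567.5 in the rest. P2ry12 was 247 and 96.4 CPM in them and 668 and 195 CPM in the rest. A Cd3 UMI was present in 95.9% and 94.2% of them, and in 67.0% and 81.1% of the others. The part of depth in this split was not tested.

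Against the comparators, 2-fold differences in the same direction on both days were counted among genes whose level in the higher set was at least 10 times that of reference T cells, called T-lacking genes. Of 269 such genes, 110 were higher in the microglia-marker droplets (40.9% of those tested) and 10 were lower (3.72%). The median log2 ratio of these genes was 0.81. With no condition on T cells, 211 of 10267 genes were higher (2.06%) and 13 lower (0.127%), with a median of 0.02. With T-lacking genes as the denominator the counts were 86 higher and 65 lower, in CD3-zero droplets 86 and 66, and with mean droplet CPM 115 and 57, so the excess of higher over lower genes depends on the scaling. The rule used this contrast, and nothing is read from these shares.

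The 12 highest genes were Nav3, Sall3, Mlph, Slco2b1, Slc2a5, Spns2, Lrrc3, Tmem100, Slc1a3, Mgll, Plxdc2 and Adamts1, all of them past 2-fold on both days. Slco2b1, an organic anion transporter gene, was 64.9 and 40.0 CPM against 0.59 and 4.16 CPM, a log2 ratio of 6.79 (5.86 to 7.92) at day 13 and 3.27 (2.51 to 4.15) at day 19. Its level in CD3-zero droplets was 264 and 189 CPM. Plxdc2, a transmembrane protein gene, was 85.3 and 50.9 CPM against 3.39 and 2.67 CPM. Nav3, a gene of the neuron navigator family, was 22.8 and 14.4 CPM and the comparators held 3 and 2 UMIs of it, so its ratio of 6.86 at day 13 had a wide interval (5.30 to 9.14). Slc2a5, a fructose transporter gene on the marker list, was 24.2 and 12 CPM against 0.26 and 1.19 CPM. Tmem100 and Slc1a3, a glutamate transporter gene, had 0 UMIs in the comparators at day 19, which makes their ratios bounds. All 12 were higher in CD3-zero droplets on both days, although Adamts1 was 16.3 against 14.3 CPM at day 19.

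Of the 12 lowest, 11 are described here: Mmp12, Clec4e, Fam20c, F10, Chil3, Mmp13, Slpi, Gpr31b, Clec4d, Nr1h3 and Gdf15, of which 5 passed 2-fold on both days (Clec4e, Fam20c, F10, Nr1h3 and Gdf15). Clec4e, which encodes the glycolipid receptor Mincle, was 63.7 and 12.2 CPM against 129 and 41.9 CPM. In droplets with no Cd3 UMI the gap was wider, at 23.3 and 2.33 CPM against 311 and 111 CPM. Chil3, a chitinase-like protein of monocytes and macrophages, was 88.6 and 25.9 CPM against 153 and 97.4 CPM, and 24.2 and 14.0 CPM against 347 and 482 CPM in CD3-zero droplets. All 11 had lower levels in CD3-zero droplets on both days, where Mmp12 and Mmp13 had 0 UMIs. The CD3-zero comparators held only 6 and 1 UMIs of Mmp12 and 4 and 2 of Mmp13. The upper limits of these ratios were above 0 on both days, so no difference is shown for either gene there. In the whole set the intervals of Mmp12 and Mmp13 at day 13 included 0.

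**Figure D3:**
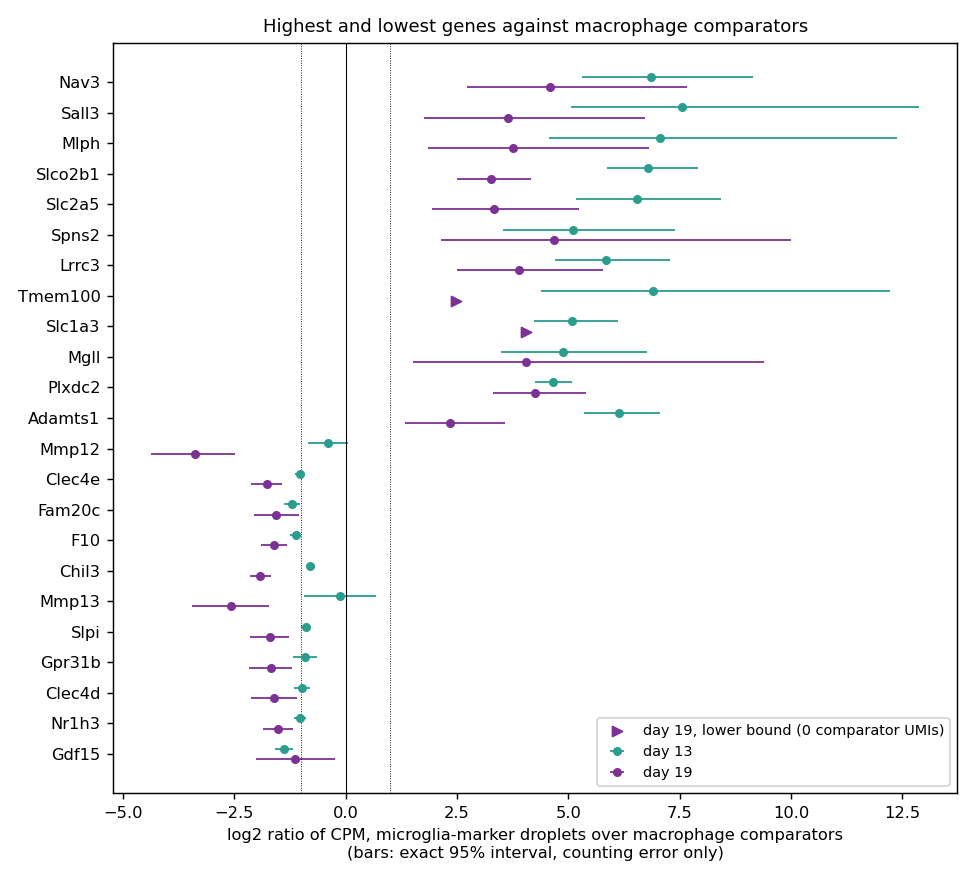
Log2 ratios of the microglia-marker droplets to the macrophage comparators for the 12 highest T-lacking genes and 11 of the 12 lowest on each day, with exact 95% intervals for counting error. The highest genes lie between 2.34 (Adamts1, day 19) and 7.56 (Sall3, day 13, from 1 comparator UMI, 5.07 to 12.9), and the lowest between -3.37 (Mmp12, day 19) and -0.13 (Mmp13, day 13).

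The complement and Fc receptor list split, and C1q and C4 genes were on the higher side. C1qa, a subunit of the C1q molecule that starts the classical pathway, was 2952 and 3287 CPM against 1153 and 1725 CPM, and 7024 and 9513 CPM against 1998 and 3873 CPM in CD3-zero droplets. C4b, which encodes complement C4, was 25.1 and 51.9 CPM against 2.68 and 6.83 CPM, and 51.3 and 109 CPM in CD3-zero droplets. Of 13 T-lacking genes of the complement and Fc receptor list, 3 were higher past 2-fold, C4b and C1qc among them, and 0 lower, a smaller share than the 40.9% of all T-lacking genes, and the median log2 ratio was 0.63 against 0.81. In CD3-zero droplets 10 of the 20 measured were higher on both days and 10 lower (9 and 10 with T-lacking genes as the denominator), beside 37.9% higher and 37.7% lower of the deeper genes.

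Chemokine and cytokine genes split by member. Ccl12, a ligand of the monocyte receptor CCR2, was 707 and 493 CPM against 105 and 174 CPM and was past 2-fold on both days, with 1696 and 2081 CPM in CD3-zero droplets. Ccl4, an inflammatory chemokine gene, was 1922 and 1370 CPM against 1022 and 959 CPM, and 3258 and 4205 CPM against 1374 and 1426 CPM in CD3-zero droplets. Il1a, which encodes interleukin 1 alpha, was 93.3 and 78.2 CPM against 21.3 and 6.53 CPM, with 343 and 370.2 CPM in CD3-zero droplets. Il1b, the other interleukin 1, went the other way, with 561 and 361 CPM against 928 and 956 CPM, and 468 and 226 CPM against 1419 and 2048 CPM in CD3-zero droplets. Cxcl9, an interferon-induced ligand of CXCR3 on T cells, was 108 and 164 CPM against 181 and 197 CPM, with 69.9 and 161 CPM in CD3-zero droplets.

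Of 8 T-lacking uptake and lysosome genes, 5 passed 2-fold higher and 0 lower, beside 40.9% higher of all T-lacking genes, a filter that favours genes high in either set. With no condition on T cells 7 of 24 were higher with a median of 0.19, beside 2.06% higher of all genes. In CD3-zero droplets 12 of 26 were higher on both days and 5 lower, beside 37.9% higher and 37.7% lower of the deeper genes. Trem2, a lipid-sensing receptor, was 449 and 396 CPM against 115 and 121 CPM (CD3-zero 1291 and 1288). Pros1, a ligand of Mertk like Gas6, was 35.1 and 24.5 CPM against 3.98 and 6.53 CPM (CD3-zero 118 and 100.1). Mertk itself was 73.4 and 46.5 CPM against 23.8 and 28.5 CPM, which was past 2-fold at day 13 and not at day 19 (CD3-zero 204 and 193 against 66.3 and 71.3). Ctsd, the lysosomal protease cathepsin D, was 2290 and 2658 CPM against 824 and 705 CPM (CD3-zero 6946 and 9271). Apoe, a lipid carrier gene of the disease-associated microglia list, was lower, at 4459 and 4599 CPM against 6074 and 5075 CPM, and 5380 and 5769 CPM against 14645 and 9842 CPM in CD3-zero droplets. Among transcription factors, Sall3, Mef2c and Bhlhe41 passed 2-fold higher beside the rule gene Sall1, 4 of 7 T-lacking genes. With no condition on T cells they were 4 of 21, Sall1 included, beside 2.06% higher of all genes, with a median of 0.13.

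Antigen presentation genes were lower in the droplets with no Cd3 UMI. The 10 MHC class II genes, which present peptides to CD4 T cells, summed to 16518 and 19390 CPM there against 35743 and 51915 CPM in CD3-zero comparators. Of the 10, 8 were lower on both days, beside 37.7% of the deeper genes. Cd74, the invariant chain, was 5491 and 7087 CPM against 14695 and 22407 CPM. In the whole set the class II median log2 ratio was -0.55 against 0.02 over all genes, and 0 of 10 passed 2-fold. Of 18 costimulatory and checkpoint ligand genes, 8 were lower and 4 higher in CD3-zero droplets on both days, beside 37.7% lower and 37.9% higher of the deeper genes. Cd274, which encodes PD-L1, was 55.9 and 34.9 CPM against 249 and 157 CPM in CD3-zero droplets, and Cd40, a costimulatory receptor, was 49.4 and 21.0 CPM against 219 and 177 CPM. Vsir, which encodes the inhibitory ligand VISTA, was higher, at 540 and 349 CPM against 101 and 134 CPM.

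Interferon genes were lower in the same droplets and immediate early genes higher. All 24 type I interferon response genes measured were lower in CD3-zero droplets than in CD3-zero comparators on both days, beside 37.7% of the deeper genes. Their sums were 8251 and 5180 CPM against 19592 and 16079 CPM. In the whole set 0 of the 24 passed 2-fold against the comparators. In CD3-zero droplets 19 of 23 interferon gamma response genes were lower on both days, beside the same 37.7%. Immediate early and dissociation genes, which also respond to tissue handling, summed to 66453 and 36828 CPM against 23316 and 22150 CPM. Of 26, 22 were higher on both days (16 higher and 4 lower with T-lacking genes as the denominator), beside 37.9% of the deeper genes. Both sets went through the same capture, and the part of handling was not tested.

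Surface antibody counts were compared in CD3-zero droplets, where no Cd3 RNA was found. The total per droplet was similar at day 13 (median 4165 in 123 microglia-marker droplets, 4395 in 139 comparators, 4295 in reference T cells), and lower in all sets at day 19 (2242.5, 2318.5 and 2270). CD45, the common leukocyte protein, had a median of 6 counts at day 13 and 3 at day 19, against 11 and 9 in the comparators and 11 and 9 in reference T cells. CD11b, an integrin of myeloid cells, had 22 and 16 counts against 36 and 30, and 5 and 3 in reference T cells. CD44 had 5 and 3 counts against 19 and 14.5, and Ly6C, a monocyte protein, 11 and 5 against 46 and 37.5. The tag for MHC class II (IAIE) had 5 and 4 counts against 18 and 35, with 5 and 3 in reference T cells.

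Low CD45 on CD11b-positive cells is a known flow cytometry pattern of microglia, and these counts were lower for both CD45 and CD44 than in either other set. The medians were small counts. Isotype control tags, which give the background, had median counts of 27 and 11.5 per droplet in the CD3-zero microglia-marker droplets. They had 27 and 14 in the CD3-zero comparators and 26 and 14 in reference T cells. The part of background in the CD45 and CD44 counts was not tested. The tags CX3CR1 (61 and 34 counts), F480, MERTK, CD206 and CD3 lay at the same level in microglia-marker droplets, comparators and reference T cells, so they did not separate these cells. For CX3CR1 this held although Cx3cr1 RNA differed. In the whole set, which includes the droplets with T cell RNA, the lowest tag ratios to the comparators included IAIE (16 against 37 counts at day 13, 24 against 44 at day 19) and Ly6C (46.5 against 66, 18 against 31). The highest was CD5, a T cell protein (24 against 19, 32 against 20), followed by others such as CD49F, an integrin chain (104.5 against 92, 66 against 51).

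**Figure D4:**
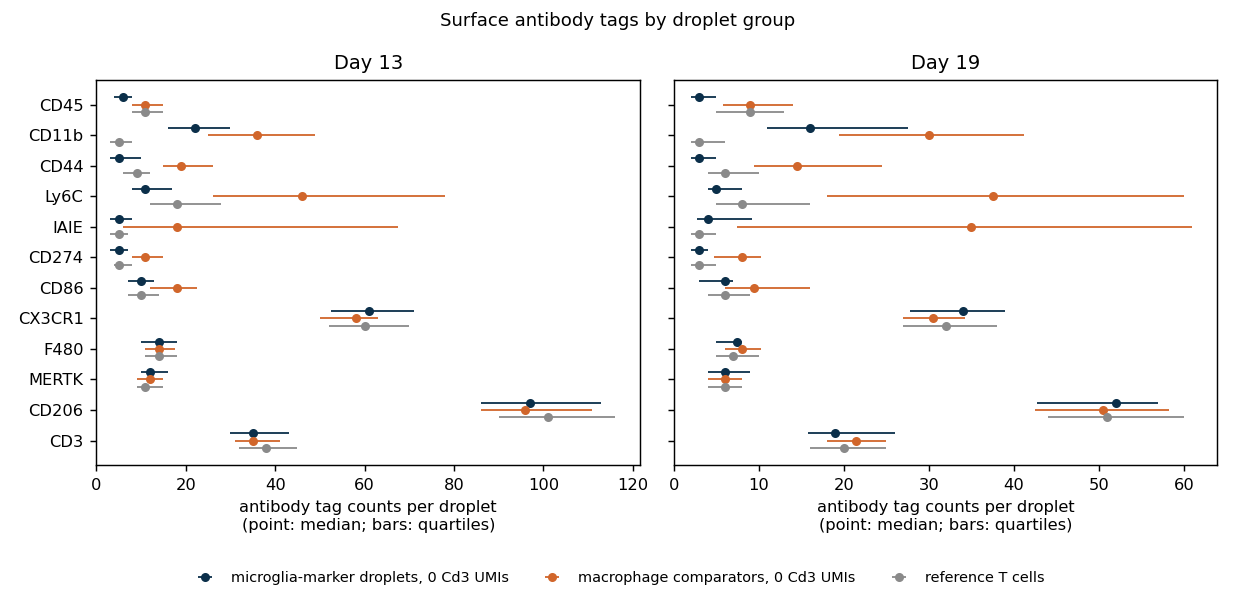
Antibody tag counts per droplet (points are medians, bars quartiles) in CD3-zero microglia-marker droplets, CD3-zero macrophage comparators and reference T cells on each day. CD45, CD44, Ly6C and IAIE have lower medians in the microglia-marker droplets than in the comparators, while CX3CR1, F480, MERTK, CD206 and CD3 are close in all 3 sets.

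Between the days, 8 of 298 T-lacking genes were at least 2-fold higher at day 19 (2.68%) and 49 at least 2-fold lower (16.4%). The median log2 ratio of the T-lacking genes was -0.49. With no condition on T cells, 194 of 10265 genes were higher (1.89%) and 211 lower (2.06%), around a median of 0.01. The T-lacking genes were thus lower as a whole at day 19, and Cd3 UMIs per droplet were more numerous. The part of T cell RNA in this was not tested. CD3-zero droplets are given beside the genes described. Their median over 2337 genes with no condition on T cells was -0.00, which is not a value for the T-lacking genes.

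Microglia markers were mostly lower at day 19. The rule genes are given as a description only, since the droplets were selected on them. P2ry12 was 387 CPM at day 13 and 143 at day 19, a log2 ratio of -1.44 (-1.52 to -1.36), and 1586 and 654 CPM in CD3-zero droplets (-1.28; -1.47 to -1.10). Tmem119 had -0.66 (CD3-zero -0.39). Among genes the rule did not use, Fcrls, a microglial Fc receptor-like gene, was 268 and 94.1 CPM (-1.51, and -1.35 in CD3-zero droplets). Cst3 had a ratio of -1.01 (CD3-zero -0.86) and Cx3cr1 one of -0.73 (CD3-zero -0.72). Olfml3 had -0.37 (CD3-zero -0.10, with an interval that included 0). Of the 25 markers that the rule did not use, 22 had negative ratios in the whole set and 21 in CD3-zero droplets (20 and 22 negative with T-lacking genes as the denominator). The medians were -0.51 in the whole set and -0.38 in CD3-zero droplets, the latter over the 24 with enough UMIs. The first median is close to that of all T-lacking genes.

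Crybb1 and Gas6 were higher at day 19. Crybb1 had a log2 ratio of 0.60 (0.51 to 0.69), and 0.46 in CD3-zero droplets, and it was also higher at day 19 in empty droplets (25.9 and 64.4 CPM) and in the comparators (a ratio of 2.41). Gas6 had 0.69 (0.50 to 0.88), and 0.94 in CD3-zero droplets, with 6.47 and 21.2 CPM in empty droplets and a ratio of 1.06 in the comparators. The part of free RNA was not tested. The 4 multiplexing tags gave subsets of each capture, which are no replicates because the labels do not tie tags to samples. By leading tag, Fcrls was 254 to 279 CPM at day 13 and 76.4 to 105 CPM at day 19, and Gas6 24.1 to 30.02 and 39.5 to 42.3 CPM.

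The 10 highest T-lacking genes at day 19 were Mrc1, Pf4, Cd36, Cxcl13, Vcam1, Ccl8, C4b, Rspo1, Slc13a3 and Gas6, and the first 7 passed 2-fold. C4b had a ratio of 1.05 (0.87 to 1.23), with tag subsets at 22.2 to 27.3 and 50.2 to 54.2 CPM, and 1.09 in CD3-zero droplets. Cxcl13, a B cell chemokine gene, was 38.1 and 98.1 CPM and had a UMI in 63 and 125 droplets, but was 219 and 214 CPM in CD3-zero droplets. Cd36, a fatty acid receptor gene, was 5.19 and 13.9 CPM (1.42, and 2.86 in CD3-zero droplets). Mrc1, Pf4 and Ccl8, genes of border and other tissue macrophages, had at most 2 UMIs a day in CD3-zero droplets. All 10 also had positive ratios in the comparators, which share the captures.

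The 10 lowest were F7, Gdf15, Tcim, Clec4e, Adamts1, Hspb1, Csmd3, Clec4d, Ptpro and Fam20c, and all passed 2-fold. Adamts1, a matrix protease gene, was 59.9 CPM at day 13 and 12.1 at day 19 (-2.31; -2.58 to -2.05), and 268 and 16.3 CPM in CD3-zero droplets. In the comparators its ratio was 1.48. Ptpro, a receptor phosphatase gene, was 73.6 and 20.8 CPM (-1.82, and -1.31 in CD3-zero droplets), with -0.40 in the comparators. Hspb1, a small heat shock protein gene, was 47.8 and 10.3 CPM (-2.22, and -2.55 in CD3-zero droplets). Of the 9 with a ratio in CD3-zero droplets all 9 were negative there, and 7 of 9 were negative in the comparators, where Adamts1 and Tcim were positive. Several CD3-zero ratios rest on few UMIs: at day 19 Gdf15, Tcim and Clec4e had 1 each, Fam20c 2 and Clec4d 3. The CD3-zero intervals of Gdf15, Csmd3 and Clec4d included 0.

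**Figure D5:**
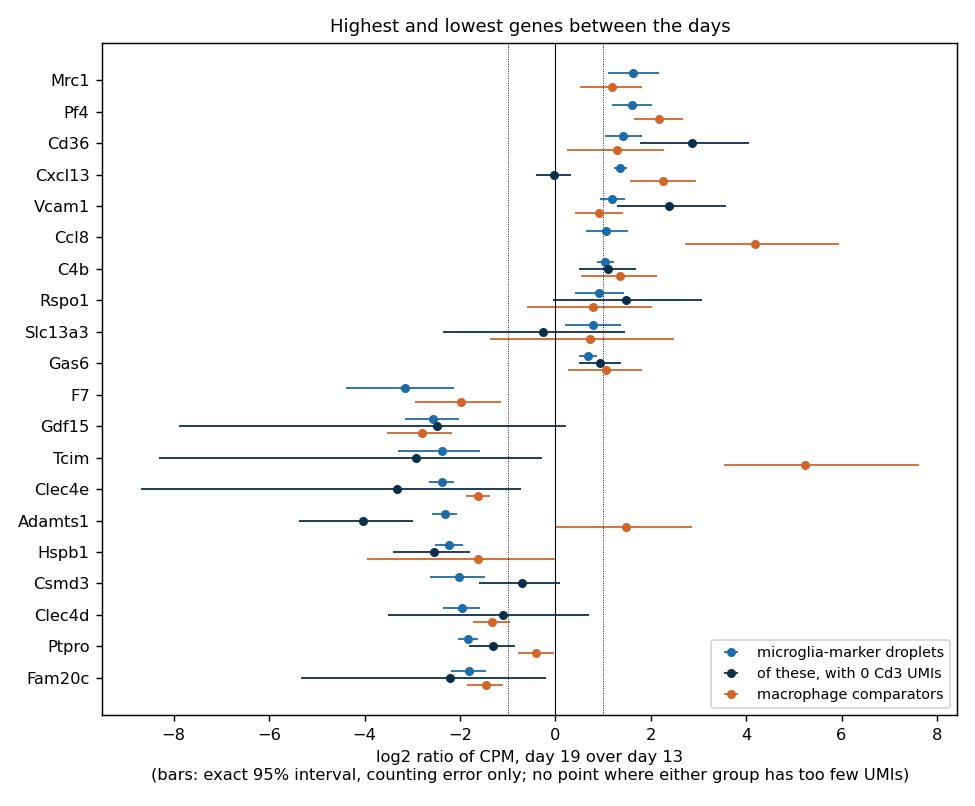
Log2 ratios of day 19 to day 13 for the named T-lacking genes in the microglia-marker droplets, with exact 95% intervals for counting error, beside the same ratio in CD3-zero droplets and in the comparators. Ratios in the microglia-marker droplets run from -3.15 (F7) to 1.63 (Mrc1).

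Type I interferon response genes were lower at day 19 in the microglia-marker droplets and in the comparators. All 24 had negative ratios in the microglia-marker droplets, 10 of them past 2-fold beside 2.06% of all genes, and the median was -0.96 against 0.01 over all genes. Their sum was also lower in reference T cells (8419 and 4516 CPM) and in empty droplets (9940 and 4786 CPM), and the part of T cell and free RNA was not tested. In CD3-zero droplets 22 of 24 were negative, and the median over the 20 with enough UMIs was -0.49. In the comparators all 24 were negative with a median of -0.78. Isg15, a ubiquitin-like protein induced by interferon, was 1939 and 764 CPM, and 1016 and 412 CPM in CD3-zero droplets. Rsad2, an antiviral enzyme gene, was 288 and 86.9 CPM, and 167 and 14.0 CPM in CD3-zero droplets. Cxcl10, an interferon-induced chemokine gene, was 448 and 188 CPM in the whole set but 333 and 354 CPM in CD3-zero droplets.

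Immediate early genes followed the same direction. Of 26, 7 were past 2-fold lower at day 19 and 0 higher, beside 2.06% lower of all genes, with a median of -0.71 against 0.01. Over the 25 with enough UMIs, the median was -0.70 in CD3-zero droplets and, again over 25, -0.32 in the comparators. Jun, a subunit of the AP-1 transcription factor, was 2686 and 1182 CPM, and 9002 and 3399 CPM in CD3-zero droplets. Cell cycle genes were higher: 10 of 20 passed 2-fold and 0 were lower, beside 1.89% higher of all genes. Their median was 0.98 against 0.01 over all genes, and 0.57 in the comparators. Summed, they were 1669 and 2757 CPM, 976 and 1986 CPM in CD3-zero droplets, and 2893 and 3921 CPM in reference T cells, whose RNA many of the droplets held. The part of T cell RNA in the cell cycle values was not tested.

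MHC class II genes had a median ratio of -0.05 in the whole set and 0 of 10 passed 2-fold, and their sum changed sign with the denominator. In CD3-zero droplets the median over the 8 with enough UMIs was 0.14, and the sum was 16518 and 19390 CPM. C1qa had 0.16, and 0.44 in CD3-zero droplets. Cst7, which encodes the protease inhibitor cystatin F and is part of the disease-associated microglia list, was 142 and 265 CPM, and 171 and 438 CPM in CD3-zero droplets. That list as a whole had a median of -0.19 against 0.01 over all genes, with 0 of 24 past 2-fold higher and 1 lower. In CD3-zero droplets it went the other way, with a median of 0.11 over the 21 with enough UMIs, 8 of 24 ratios negative and a sum of 31112 and 38693 CPM.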

How the data were processed

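Per the file headers the matrices were written by Cell Ranger 4, and they hold UMI counts, deposited unfiltered by the authors, for 32285 genes, 138 antibody tags and 4 multiplexing tags. The submitters' processing notes name mm10, bcl2fastq 2.20, Cell Ranger 4.0.0, STAR 2.7.5c, Seurat and R 4.1.2. Summed gene UMIs of members were 17355325 (day 13) and 11116450 (day 19), those of comparators 15322942 and 3368757.

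Counts were summed per set and day with Python 3.11.15, numpy 2.4.6, pandas 2.3.3 and scipy 1.17.1. Ratios of CPM have exact 95% Poisson intervals, and shares have exact binomial (Clopper-Pearson) intervals. Where a set held 0 UMIs of a gene, 3 counts were used, and the ratio is a bound. Genes entered the comparison with macrophage comparators with at least 50 UMIs per day in both sets together, and the comparison of days with at least 100 over both days. The level of a T-lacking gene in the higher set was at least 10 times that in reference T cells. For the denominator of 201 genes, the level in both sets together was used instead. The ratio code was tested on simulated data.

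The members, gene lists and rules were chosen with earlier results of these data known. The named genes are the 12 highest and 12 lowest by mean log2 ratio in the same direction on both days, the 10 highest and 10 lowest between days where at least 10 droplets of the higher day had a UMI and none held over 25% of its UMIs, the marker list, and a few genes of each of 32 lists. Rule genes, receptor segments, ribosomal, mitochondrial, Gm and Rik genes were left out of the ranks. Some genes are not reported here by name, and list counts include them. Of the list genes, 5 were not analysed here, and 31 of 39 chosen antibody tags were found by name. Tag ratios used medians. No doublet caller was run and doublets remain. Alternatives varied the rule, depth, mitochondrial limit, T cell filter, count minimum, denominator and droplets included.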

Additional observations from a re-analysis of the deposited data

Results flagged for a closer look

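Several genes had ratios of day 19 to day 13 of opposite sign in the microglia-marker droplets and the macrophage comparators, and the difference was not tested. Adamts1 had a log2 ratio of -2.31 in the microglia-marker droplets and 1.48 in the comparators, and Tcim -2.38 and 5.24, where the comparator values rest on few UMIs. Among microglia markers, the ratios were -0.37 and 0.50 for Olfml3, -0.42 and 1.05 for Siglech, -0.088 and 0.87 for Cd81, -0.41 and 2.10 for Adgrg1, and -0.73 and 0.21 for Cx3cr1. They were -0.47 and 1.49 for Sparc, -0.71 and 1.65 for Ecscr, -0.26 and 0.23 for Csf1r, and -0.90 and 1.23 for Gpr34. The comparators were chosen for low P2ry12 and Tmem119, and several of these genes were below the empty droplets in them.

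Microglia-marker RNA was also found in barcodes outside the set. Of barcodes with a TCR contig and at least 5000 UMIs, 245 of 4632 at day 13 (5.29%; 4.66% to 5.97%) and 204 of 3215 at day 19 (6.35%; 5.53% to 7.24%) had at least 5 UMIs of the 3 rule genes. At least 3 Cd3 UMIs were found in 97.6% and 99.5% of them.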

How the results depend on the processing

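No paired analysis was possible because each day has 1 capture and no result comes from a test. Among 1761 values of 104 genes and summed lists under 17 settings, 2 reversed, both between the days in droplets with 0 Cd3 UMIs: Cxcl13 (-0.032) and Slc13a3 (-0.26). In all 20 changed sign, the others from reported sizes of at most 0.42: Siglech, Cd81, Lag3, Trem2, Sall1, Tmem173 and the MHC class II and complement sums. Many more values left the counting-error interval of the reported value. These ranged from 0 of 104 at a mitochondrial limit of 5% to 80 of 97 in droplets with 0 Cd3 UMIs. They were 77 of 104 without the Gpnmb and Ms4a7 droplets, 72 without second tags and 57 with T-lacking genes as the denominator. The share of eligible barcodes at day 13 and day 19 was 19.4% and 33.3% with a rule sum of at least 3, 10.9% and 11.8% with at least 10, 19.0% and 27.8% at 10000 UMIs or more, 7.91% and 13.1% without droplets of 3 or more Gpnmb and Ms4a7 UMIs, and 12.9% and 17.4% without those with a second multiplexing tag. Under the same settings from a sum of 10 on, the share with a Cd3 UMI was 77.1% and 81.4%, 93.4% and 94.4%, 67.0% and 81.1%, and 51.2% and 74.6%.

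Against the comparators, genes lower numbered 66 in CD3-zero droplets, 65 with T-lacking genes as the denominator, 57 with mean droplet CPM, 56 without the Gpnmb and Ms4a7 droplets, 38 without second tags and 3 at 10000 UMIs, against 10 as reported. A minimum 10 times lower gave 173 higher and 28 lower, one 3 times higher 67 and 6, and no T cell filter 211 higher. Between the days, genes higher numbered 1 in CD3-zero droplets and 2 without the Gpnmb and Ms4a7 droplets or without second tags, and genes lower 18 in CD3-zero droplets and 26 at 10000 UMIs. The lower minimum gave 31 and 141, the higher 3 and 26, and no T cell filter 194 and 211.

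Leaving out 1 leading tag of a day gave shares of 13.5% to 15.6% at day 13 and 20.1% to 24.3% at day 19, Cd3 shares of 78.9% to 81.1% and 81.7% to 87.5%, 81 to 111 genes higher and 8 to 14 lower against the comparators, and 7 to 10 higher and 38 to 50 lower between days.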

Other observations

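Other gene groups were compared between CD3-zero microglia-marker droplets and CD3-zero comparators. Of 18 hypoxia and glycolysis genes, 14 were lower on both days, beside 37.7% of all genes with at least 50 UMIs per day in both CD3-zero sets together. Vegfa, the vascular growth factor gene, was 28.9 and 4.66 CPM at day 13 and day 19 against 169 and 177 CPM. Fabp5, a fatty acid binding protein gene, was 130 and 44.2 CPM against 1374 and 462 CPM. Of 17 genes of TGF-beta and brain-environment signalling, 8 were higher on both days and 4 lower, or 6 and 7 with T-lacking genes as the denominator, beside 37.9% higher and 37.7% lower of those genes. Tgfbr1, a TGF-beta receptor gene, was 375 and 219 CPM against 181 and 145 CPM, with a day-19 order that turned with T-lacking genes as the denominator. Smad7, an inhibitor of that pathway, was 259 and 144 CPM against 47.5 and 45.6 CPM.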
